A study of Bassia scoparia with 27 samples.

Results

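The late response of line 9425 of kochia (*Bassia scoparia*) to the synthetic auxin fluroxypyr was described by comparing 3 libraries taken 10 h after treatment (10 HAT) with 3 libraries of untreated tissue. These are 6 of the 27 libraries of the study, which also covers the fluroxypyr-resistant line Flur-R and the susceptible line J01-S, each untreated, at 3 HAT and at 10 HAT. A transcript entered the comparison when its normalized count was 10 or more in at least 2 of the 6 libraries, which held for 25016 of 45517 transcripts, from 23213 loci. Line 9425 is an inbred line that resists dicamba and is susceptible to fluroxypyr, and it is homozygous for an altered allele of the Aux/IAA gene IAA16, in which a glycine is replaced by an asparagine, so untreated and treated plants share that allele. All tissue was young leaf tissue at the shoot apex of vegetative 9425 plants. The untreated tissue was cut after a water spray on the day before the same plants were sprayed with fluroxypyr at its label rate. The untreated libraries are numbered 1, 2 and 3 and the 10 HAT libraries 1, 2 and 4, and these numbers are given as plants below. Equal numbers were taken as the same plant sampled at both times, which the labels do not state. Another 10 HAT library, labelled replicate 3, was left out because its line-specific transcripts are not those of 9425.

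Fluroxypyr is a herbicide that acts as an auxin mimic. Auxin brings together the TIR1/AFB F-box receptors and the Aux/IAA repressors, which are then degraded, and the auxin response factors (ARFs) that the repressors held become active. Genes for Aux/IAA proteins and for GH3 enzymes, which join auxin to amino acids, are among the first to be transcribed. In sensitive broadleaf plants a lasting auxin signal is followed by ethylene and abscisic acid synthesis, epinasty, loss of photosynthesis and death of the tissue.

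The normalized counts of a library summed to 59407638 to 76916252 in the untreated group and to 52401244 to 58872568 at 10 HAT, and the reads behind a single value cannot be recovered from them. Of 782 transcripts chosen because every 9425 library differed from every J01-S library by more than 4-fold, untreated and at 3 HAT, the 10 HAT libraries of plants 1, 2 and 4 had 97.7 to 99.5% on the side of 9425 and the library left out 38.2%. No untreated tissue was taken at the hour of the 10 HAT harvest, so time of day and treatment cannot be told apart in any value below. The study cut the same plants before treatment and again at 3 HAT, so an effect of earlier cutting cannot be separated from treatment. Fewer cells of a type and less RNA per cell cannot be told apart either. RNA was extracted in batches that are not identified among the libraries, and the gene models carry no descriptions by which markers of the shoot apex could be checked. Gene names are those of the study's text and tables, and of the 149 transcripts listed by name 40 stand in the study's own list for 9425 at 10 HAT, so those 40 are not independent evidence of a direction. Most of the others are from the study's tables for other times and lines or from its text on this line, so their counts are descriptions as well.

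At 10 HAT, 2390 transcripts were higher than in untreated tissue, which is 9.55% of those tested, and 2847 were lower, which is 11.4%. A transcript was called when limma gave an adjusted p (Benjamini-Hochberg) below 0.05 together with a change of more than 0.5 in log2(normalized count + 1), the scale of every fold change below. On the authors' scaling falls were larger than rises, with a median log2 fold change of -1.68 among the transcripts that fell and 1.34 among those that rose. Rescaling libraries to the same total moved the median of all transcripts up by 0.26. Sizes of falls and rises were not compared on that scale, so their order holds for the authors' scaling only. A fall of more than 2 was seen in 1095 transcripts and a rise of more than 2 in 661, but the most extreme changes were more often rises, since 29 transcripts rose and 19 fell by more than 6. The groups did not overlap for 10260 of the 25016 transcripts tested, or 41.0%, and all called transcripts were among these. Isoforms of 1 locus were not called in opposite directions at any of the 1580 loci with at least 2 tested isoforms. Isoforms share reads, so this is no independent check.

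The transcripts that fell included many of the most abundant ones before treatment. The mean counts of the transcripts that fell dropped by 18160491 in all, against a gain of 8478597 in those that rose. Counts were not divided by length. Of the 100 transcripts with the highest mean count in untreated tissue, 57 fell, 1 rose and 42 were not called. Of the 100 highest at 10 HAT, 31 had risen and 13 had fallen. Each ranking uses values that enter the change, so the first leans towards falls and the second towards rises. With each library rescaled to the same total, the median of all transcripts moved from 0.05 to 0.31 and the counts became 4126 higher and 2098 lower, so that rises made up 66.3% of the calls in place of 45.6%. Leaving out 1 library at a time gave 946 to 2075 higher and 1642 to 2704 lower. The counts were 960 and 1642 without plant 1 at 10 HAT, 946 and 1664 without plant 4 at 10 HAT, and 1279 and 1705 without untreated plant 3. In all 6 such fits 795 of the transcripts that rose and 1386 of those that fell were called again.

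**Figure D1:**
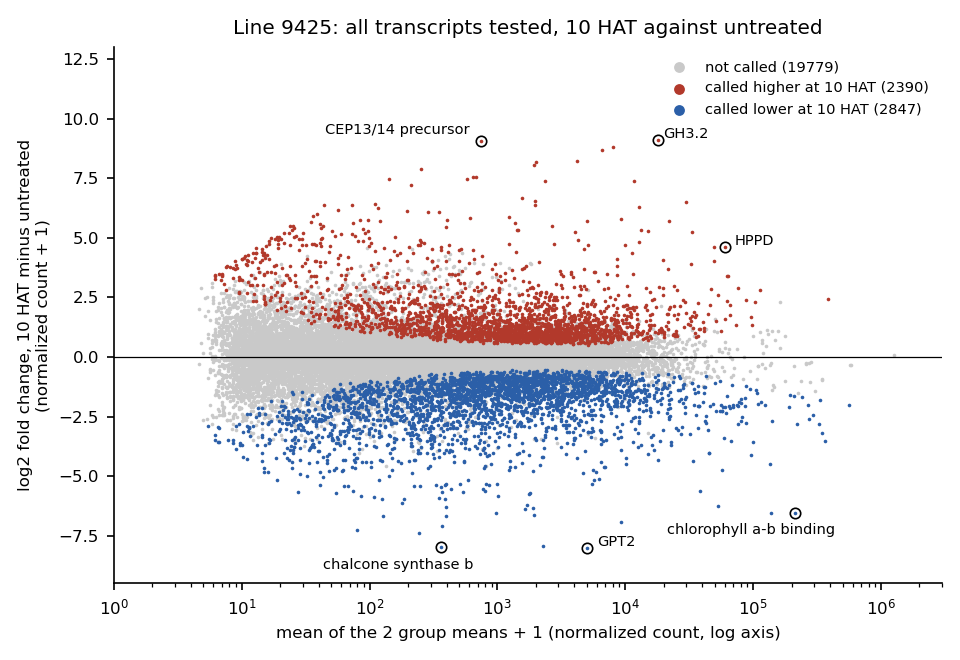
Change and level of every transcript tested in 9425. Each point is 1 transcript, with the mean of the 2 group means plus 1 on a log axis and the log2 fold change at 10 HAT on the vertical axis. The 2847 transcripts called lower (blue) reach into the most abundant ones, and GH3.2 and the CEP13/CEP14 precursor stand highest among the 2390 called higher (red).

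By list, most of the tested transcripts of ethylene synthesis and response, defence and the clock rose. Most of those of photosynthesis, carbon metabolism, the polyketide and flavonoid list and the cell cycle fell. Over all lists 137 of 149 transcripts were tested, 56 rose, 52 fell and 29 were not called, where 9.55% of all transcripts tested rose and 11.4% fell. Since the study mostly named transcripts that changed, nothing is read from the larger share in the lists. With libraries rescaled to the same total the counts over all lists were 57 and 50.

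**Figure D2:**
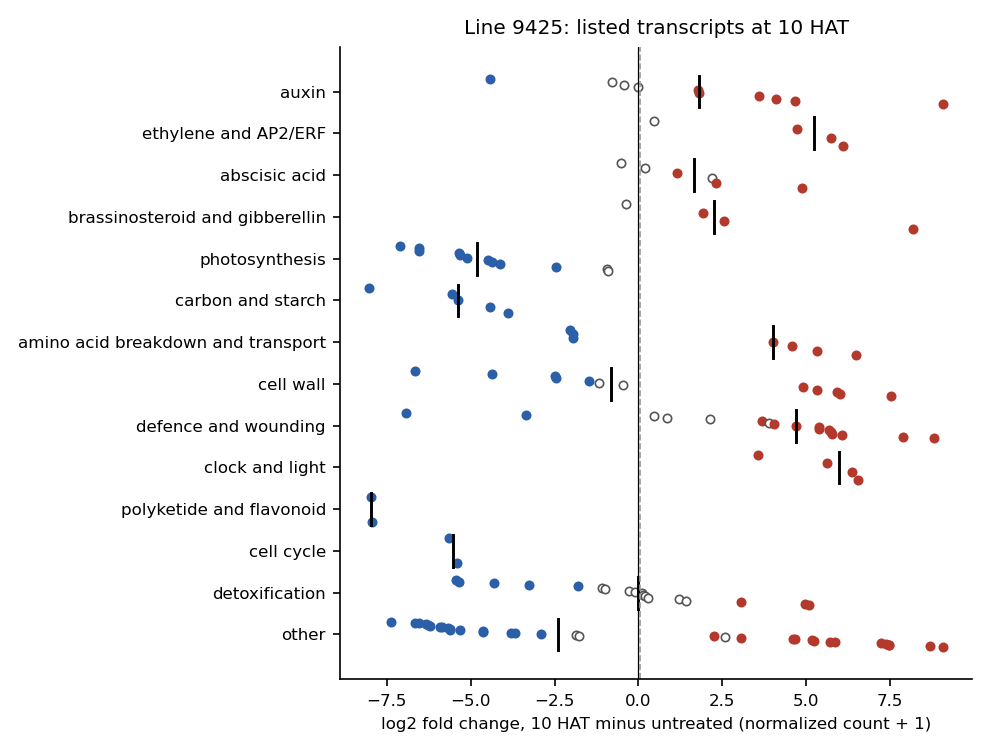
Log2 fold change at 10 HAT of every tested transcript by list. Red filled points were called higher, blue filled points lower and open points were not called. The black bar is the list's median and the dashed line the median of all transcripts tested, 0.05. The 12 photosynthesis and 5 carbon and starch transcripts lie below the line, and the 4 clock and light transcripts above it.

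The auxin list of 10 transcripts had 6 that rose, 1 that fell and 3 that were not called, with a median of 1.80. GH3.2 (Bs.00g477580.m01, chromosome 6, 3114613 to 3118346 of assembly version 2), an auxin-conjugating enzyme, had the largest rise of all named transcripts, just above the CEP13/CEP14 precursor. With the plant as a block the order turned, at 9.208 against 9.426 (fixed) and 9.115 against 9.145 (random). Normalized counts of GH3.2 were 21, 213 and 42 in untreated plants 1, 2 and 3 and 27190, 60581 and 19810 in plants 1, 2 and 4 at 10 HAT (log2 fold change 9.09 ± 0.83 (SE), adjusted p = 0.00107). Plant 2 was the highest in both groups, and the lowest value at 10 HAT was far above the highest untreated one.

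The 3 Aux/IAA repressors of the list rose together and with little spread among plants. IAA29 (Bs.00g048560.m01, chromosome 8, 87090874 to 87092782) went from 635, 1119 and 549 to 20118, 22293 and 14735 (log2 fold change 4.68 ± 0.31 (SE), adjusted p = 0.000494). IAA15 (Bs.00g301680.m01, chromosome 9, 5126719 to 5127795) went from 746, 1294 and 878 to 15467, 17526 and 15650 (log2 fold change 4.09 ± 0.23 (SE), adjusted p = 0.000349). The IAA4-like transcript Bs.00g107340.m01 was at 473, 383 and 565 before treatment and at 5459, 6208 and 5443 after it, a change of 3.60 ± 0.20 (SE). Both isoforms of a PIN auxin efflux carrier (Bs.00g190770.m01 and its second isoform) rose by less, 1.78 and 1.81 on the log2 scale. Counts of the first were 10548, 8783 and 10066 untreated and 30673, 38585 and 31990 at 10 HAT.

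A transcript described as auxin-inducible, Bs.00g528960.m01 (chromosome 6, 95685824 to 95686704), moved against the 6 that rose. It fell from 1577, 416 and 646 to 41, 43 and 23 (log2 fold change -4.41 ± 0.52 (SE), adjusted p = 0.00256), and it was already between 46 and 54 at 3 HAT. The transcription factors ARF19/7 (Bs.00g057730.m01, change -0.44 ± 0.26 (SE)) and ARF3 (Bs.00g076170.m01, change -0.02 ± 0.48 (SE)) overlapped between the groups, as did an auxin influx carrier of the AUX/LAX family (Bs.00g309300.m01, change -0.79 ± 0.37 (SE)).

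In the ethylene list 3 of the 4 tested transcripts rose. ACC synthase, which forms the direct precursor of ethylene (Bs.00g478760.m01, chromosome 6, 4394631 to 4404814), was nearly silent before treatment, at 4, 8 and 9, and stood at 446, 899 and 350 at 10 HAT (log2 fold change 6.09 ± 0.48 (SE), adjusted p = 0.000733). Plant 2 again had the highest value. ERF13 (Bs.00g370370.m01), an ethylene response factor, went from 3, 6 and 0 to 182, 149 and 159 (log2 fold change 5.75 ± 0.75 (SE), adjusted p = 0.00342). The related ERF/PTI6 transcript Bs.00g304090.m01 went from 222, 162 and 203 to 4067, 7917 and 4197 (log2 fold change 4.72 ± 0.30 (SE), adjusted p = 0.000404). A further ethylene-responsive factor, Bs.00g418990.m01, was at 15, 24 and 15 and 16, 24 and 39 and overlapped between the groups, although it had been at 110, 308 and 69 in plants 2, 3 and 4 at 3 HAT. Both DREB1A-related transcripts were below the filter, with no value above 10 in the 6 libraries.

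No transcript of abscisic acid synthesis was called in this line, while 3 other transcripts of the abscisic acid list rose. The phosphatases among them are named by the study by family only, so their part in abscisic acid signalling is not known. NCED enzymes cut carotenoids in the step that limits abscisic acid synthesis. The NCED2 transcripts were at 227, 297 and 405 untreated and 230, 181 and 226 at 10 HAT (Bs.00g024060.m01, change -0.51 ± 0.28 (SE)) and at 1462, 1178 and 1681 and 2567, 974 and 1709 (Bs.00g059470.m01, change 0.19 ± 0.36 (SE)), with overlap in both. NCED6 was below the filter, with values up to 18. A protein phosphatase 2C, of a family in which some members restrain abscisic acid signalling, rose from 3, 1 and 17 to 79, 173 and 257 (Bs.00g430680.m01, log2 fold change 4.87 ± 0.88 (SE), adjusted p = 0.0106). The transporter ABCG40, which imports abscisic acid in *Arabidopsis*, has 2 neighbouring transcripts here. Bs.00g301780.m01 rose from 225, 894 and 383 to 2626, 1808 and 1958 (log2 fold change 2.30 ± 0.48 (SE), adjusted p = 0.0171), but without plant 1 at 10 HAT, plant 4 at 10 HAT or untreated plant 3 the adjusted p was 0.0675, 0.0535 and 0.0599. Bs.00g301770.m01 changed by 2.20 ± 0.68 (SE) and was not called (adjusted p = 0.0613), but was called with the plant as a fixed block (adjusted p = 0.0438) and as a random block (0.0474). Another phosphatase, Bs.00g036810.m01, rose by 1.15 ± 0.23 (SE), with an adjusted p of 0.0163 that became 0.0673 with the plant as a fixed block, 0.00806 with the plant as a random block, and 0.0513, 0.0606 and 0.0564 without plant 2 at 10 HAT, plant 4 at 10 HAT and untreated plant 3.

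Of the brassinosteroid and gibberellin list, 4 of 7 transcripts were tested and 3 rose. A transcript for a GASA protein, a family of small cysteine-rich peptides that respond to gibberellin (Bs.00g477660.m01, chromosome 6, 3176080 to 3177847), went from 9, 8 and 9 to 2712, 1012 and 8237 (log2 fold change 8.20 ± 0.70 (SE), adjusted p = 0.000892). Its 3 treated plants differed widely from each other and all lay far above the untreated ones. CYP734A1, which inactivates brassinosteroids in *Arabidopsis* (Bs.00g050510.m01), rose from 139, 117 and 192 to 853, 1076 and 691 (log2 fold change 2.55 ± 0.28 (SE), adjusted p = 0.00189), and CYP90C1/D1 (Bs.00g245700.m01), of brassinosteroid synthesis, rose by 1.94 ± 0.30 (SE). Gibberellin 2-beta-dioxygenase 4, an enzyme that inactivates gibberellins (Bs.00g361960.m01), was at 16, 51 and 8 and 14, 18 and 12 and was not called, after values of 201, 626 and 242 at 3 HAT. Of the transcripts below the filter, both named CYP90A1 were at 0 in all 9 libraries of 9425 used here.

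**Figure D3:**
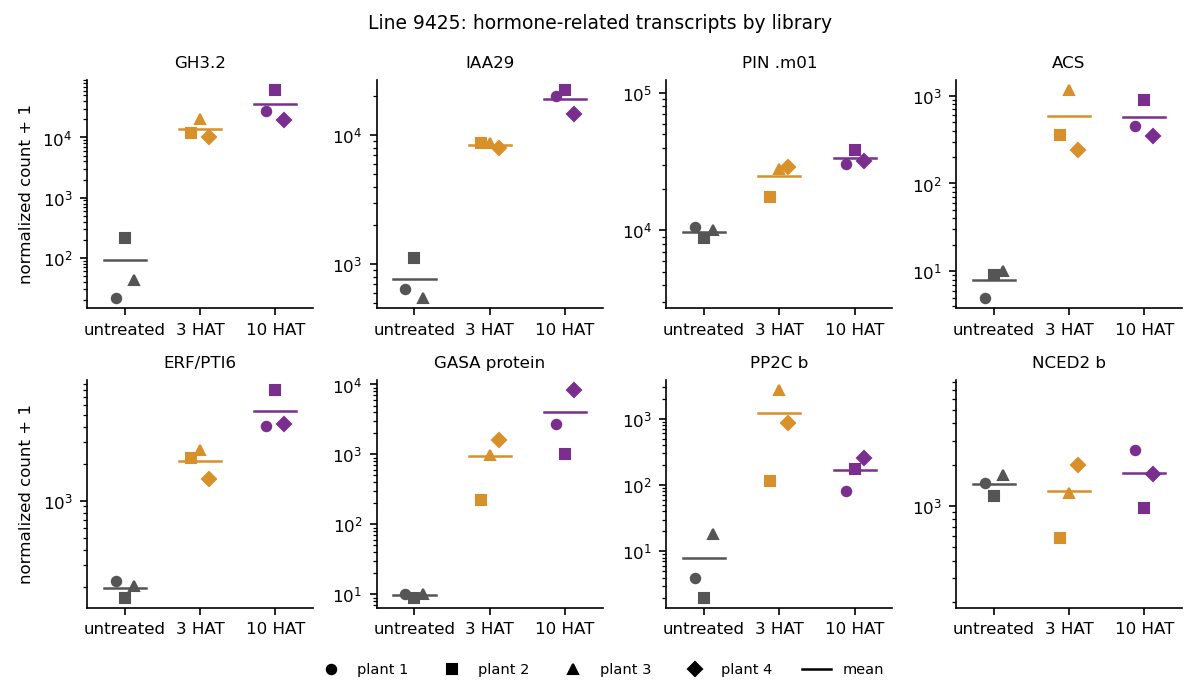
Normalized counts plus 1 of hormone-related transcripts in each library of 9425, on log axes, untreated, at 3 HAT and at 10 HAT. Each point is 1 plant and the bar is the group mean. GH3.2, ACC synthase, IAA29 and PIN stand above the untreated plants at both times, and NCED2 overlaps throughout.

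The 12 photosynthesis transcripts listed took 1.84 to 2.38% of the normalized counts in untreated libraries, 0.705 to 1.12% at 3 HAT and 0.176 to 0.201% at 10 HAT. Of these 12, 10 fell and none rose, with a median of -4.80. A chlorophyll a-b binding protein of the light-harvesting antenna (Bs.00g240870.m01, chromosome 7, 1525280 to 1526083) had counts of 558111, 301017 and 397919 in untreated plants and of 3739, 4495 and 4845 at 10 HAT (log2 fold change -6.55 ± 0.28 (SE), adjusted p = 0.000238). Its second isoform shares its reads and fell by 6.53 on the log2 scale. Another antenna transcript, Bs.00g020870.m01, fell from 246266, 128622 and 173907 to 10099, 9381 and 11145, a change of -4.12 ± 0.29 (SE).

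The magnesium chelatase subunit H, which starts chlorophyll synthesis from protoporphyrin (Bs.00g192330.m01, on an unplaced sequence), fell from 258923, 278956 and 245031 to 11993, 8214 and 16005 (log2 fold change -4.49 ± 0.29 (SE), adjusted p = 0.000494). Photosystem I subunit IV (Bs.00g115330.m01) fell from 94697, 45216 and 54124 to 2420, 4022 and 2674 (log2 fold change -4.37 ± 0.33 (SE), adjusted p = 0.000676). PGR5, a protein of cyclic electron flow around photosystem I (Bs.00g236450.m01), fell from 15585, 13234 and 7582 to 291, 411 and 306 (log2 fold change -5.12 ± 0.30 (SE), adjusted p = 0.000368). An ATP synthase transcript, Bs.00g432500.m01, fell by 2.44 on the log2 scale. The photosystem II subunits Bs.00g059220.m01 and Bs.00g338570.m01 changed by -0.92 ± 0.33 (SE) and -0.91 ± 0.30 (SE) and were not called (adjusted p = 0.0951 and 0.0743), although neither overlapped between the groups. With the plant as a random block the second was called (adjusted p = 0.0389), and with a fixed block it was not (0.123).

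Early light-induced proteins (ELIPs), which protect the photosystems under strong light, fell as well. The transcript Bs.00g268300.m01 (chromosome 7, 40848063 to 40852200) went from 874, 824 and 475 to 2, 8 and 4 (log2 fold change -7.09 ± 0.50 (SE), adjusted p = 0.000602). Its relatives Bs.00g421070.m01 and Bs.00g420960.m01 lie close together on chromosome 5, may share reads, and fell by 5.34 and 5.32. In both, plant 2 at 10 HAT was the highest of the treated plants, at 190 and 140, against 14 to 21 in plants 1 and 4.

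All 5 transcripts of the carbon and starch list fell, with a median of -5.39. GPT2, which brings glucose 6-phosphate into plastids (Bs.00g002550.m01, chromosome 8, 2695550 to 2697894), fell from 13699, 7006 and 9337 to 34, 57 and 24 (log2 fold change -8.03 ± 0.38 (SE), adjusted p = 0.000267). A transcript for PPCK1, the kinase that activates phosphoenolpyruvate carboxylase, the first carboxylase of C4 plants such as kochia (Bs.00g104620.m01), fell from 2562, 969 and 959 to 50, 14 and 29 (log2 fold change -5.55 ± 0.56 (SE), adjusted p = 0.00148). Granule-bound starch synthase 1, which makes amylose (Bs.00g412900.m01), went from 7259, 15684 and 14374 to 780, 456 and 463 (log2 fold change -4.42 ± 0.36 (SE), adjusted p = 0.000776). Fructose-1,6-bisphosphatase (Bs.00g383860.m01) fell by 3.89 and a GAPDH-like transcript (Bs.00g055200.m01) by 5.39 on the log2 scale.

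Chalcone synthase is the entry enzyme of flavonoid synthesis. The study names the following transcripts by the family chalcone/stilbene synthase only, and they were close to absent at 10 HAT. The transcript Bs.00g518390.m01 (chromosome 6, 80035397 to 80039536) went from 5811, 3664 and 4038 to 22, 24 and 9 (log2 fold change -7.95 ± 0.40 (SE), adjusted p = 0.000326). The transcript Bs.00g518030.m01 (chromosome 6, 79360933 to 79363823) went from 1013, 678 and 471 to 4, 3 and 0 (log2 fold change -7.99 ± 0.68 (SE), adjusted p = 0.000894). Both had already fallen to values under 100 at 3 HAT.

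The amino acid list split by role, since its 4 enzyme transcripts rose and its 3 transporter transcripts fell. The branched-chain keto acid dehydrogenase E1 alpha subunit, of leucine, isoleucine and valine breakdown (Bs.00g148640.m01, chromosome 1, 27689507 to 27695891), rose from 491, 1030 and 460 to 30811, 16486 and 30253 (log2 fold change 5.33 ± 0.39 (SE), adjusted p = 0.000604). Cystathionine gamma-lyase, an enzyme of sulfur amino acid metabolism (Bs.00g413330.m01, chromosome 5, 108248402 to 108252561), rose from 617, 351 and 894 to 60657, 25135 and 92822 (log2 fold change 6.49 ± 0.53 (SE), adjusted p = 0.000814). In both, plant 2 was the lowest at 10 HAT. Plant 2 was also the lowest for HPPD, 4-hydroxyphenylpyruvate dioxygenase of tyrosine breakdown, which also leads to tocopherol and plastoquinone (Bs.00g422990.m01, chromosome 2, 526478 to 529996). HPPD went from 3950, 6728 and 3482 to 148132, 68435 and 127605 (log2 fold change 4.59 ± 0.38 (SE), adjusted p = 0.000825). An alanine dehydrogenase domain transcript, Bs.00g056520.m01, rose by 4.00 ± 0.30 (SE).

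The 3 amino acid transporters were highest at 3 HAT and lowest at 10 HAT. Bs.00g315820.m01 had counts of 706, 790 and 1775 untreated, 3612, 19214 and 3234 at 3 HAT and 206, 323 and 258 at 10 HAT, a fall against untreated of 1.95 on the log2 scale (adjusted p = 0.0147). Its neighbour Bs.00g315840.m01 also fell by 1.95 (adjusted p = 0.0175), and Bs.00g087440.m01 fell by 2.05 (adjusted p = 0.031). These calls against untreated rest on few plants. The adjusted p of the first was 0.0584 without plant 1 and 0.0502 without plant 4 at 10 HAT, that of the second 0.065 and 0.0574, and that of the third 0.099 and 0.0891, and 0.0549, 0.0683 and 0.0971 without plant 2 at 10 HAT, untreated plant 2 and untreated plant 3. With the plant as a fixed block the third was not called (adjusted p = 0.0916), and with a random block it was (0.0182).

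**Figure D4:**
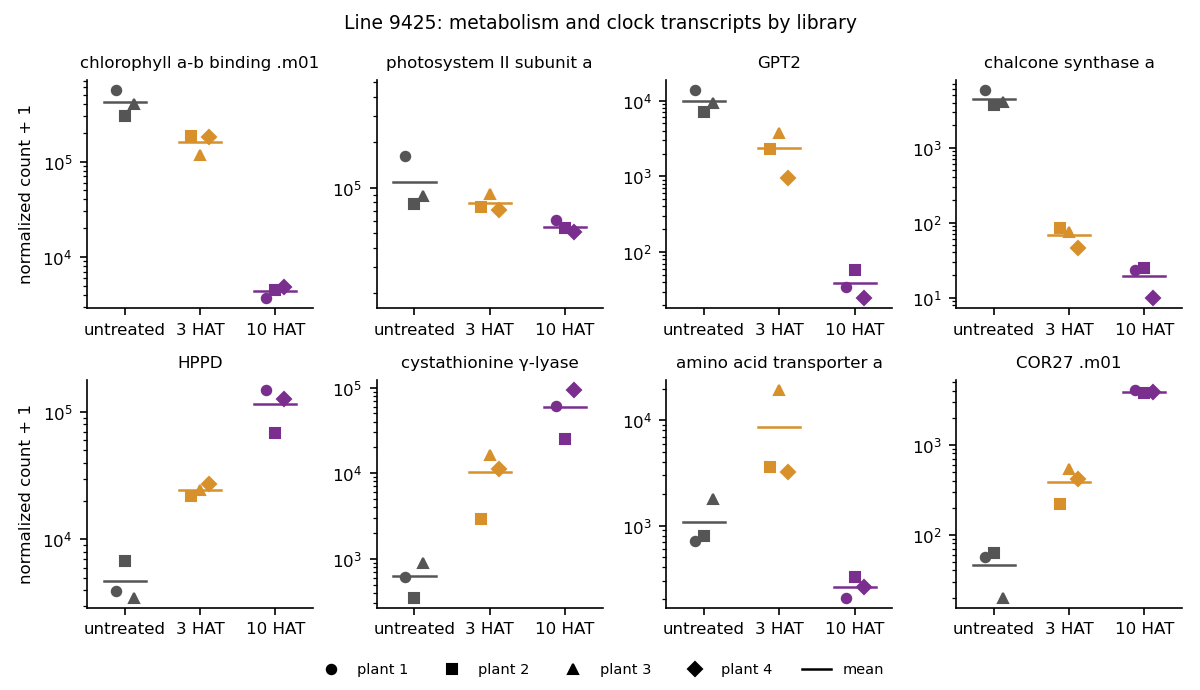
Normalized counts plus 1 of photosynthesis, carbon, polyketide and flavonoid, amino acid and clock transcripts in each library of 9425, on log axes, untreated, at 3 HAT and at 10 HAT. Each point is 1 plant and the bar is the group mean. On the log scale the fall of the chlorophyll a-b binding transcript and of GPT2 was mostly after 3 HAT, though most of the fall in count came before it. The transcript marked chalcone synthase a, which the study names as chalcone/stilbene synthase, was low at both times.

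All 4 transcripts of the clock and light list rose, and 3 of them are in the study's list. COR27 is a cold- and clock-regulated repressor of clock genes in *Arabidopsis*. Its first isoform (Bs.00g168520.m01, chromosome 1, 76984163 to 76987814) went from 55, 62 and 19 to 4023, 3760 and 3832 (log2 fold change 6.55 ± 0.43 (SE), adjusted p = 0.000515), with little difference among the treated plants. ELF4, a part of the evening complex of the clock (Bs.00g430360.m01), rose from 73, 84 and 24 to 2342, 2423 and 3296 (log2 fold change 5.62 ± 0.47 (SE), adjusted p = 0.000876). BBX26, of the B-box family of light-signalling factors (Bs.00g520060.m01), rose from 954, 464 and 1523 to 11137, 9824 and 10356 (log2 fold change 3.57 ± 0.40 (SE), adjusted p = 0.00213). Clock transcripts vary with the hour of the day, so the lack of untreated tissue from the hour of the 10 HAT harvest bears on these values directly.

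The 1 cell cycle gene listed, a cyclin (Bs.00g535430.m01, chromosome 6, 102389605 to 102396338), fell from 164, 121 and 145 to 2, 3 and 1 (log2 fold change -5.63 ± 0.48 (SE), adjusted p = 0.000892), and its second isoform fell by 5.39. It is in the study's list, so its direction was known.

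In the cell wall list 5 of 12 transcripts rose and 5 fell. The 4 cellulose synthase transcripts, of 3 loci, fell. The largest fall among them was that of Bs.00g260720.m01, from 162, 270 and 276 to 11, 11 and 9 (log2 fold change -4.35 ± 0.37 (SE), adjusted p = 0.000892). Bs.00g015170.m01 fell by 2.45 and Bs.00g056700.m01 by 1.48. A glycoside hydrolase 17, of the family of beta-glucanases (Bs.00g478150.m01), fell from 419, 1503 and 421 to 8, 13 and 1 (log2 fold change -6.67 ± 0.84 (SE), adjusted p = 0.00304).

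Pectin-modifying transcripts appeared where none had been counted. The pectin lyase fold transcript Bs.00g261820.m01 (chromosome 7, 26728815 to 26735639) was at 0 in every untreated plant and at 136, 33 and 56 in plants 1, 2 and 4 at 10 HAT (adjusted p = 0.0026). A second one, Bs.00g142300.m01 (chromosome 1, 18619799 to 18621434), was at 0 and at 87, 19 and 36 (adjusted p = 0.00492). A pectinesterase, which removes methyl groups from pectin (Bs.00g447890.m01, chromosome 2, 33285662 to 33290575), was at 0 and at 129, 40 and 40 (adjusted p = 0.00261). No fold change is given against a group listed at 0. These 3 are in the study's list. A barwin-like transcript (Bs.00g107600.m01) rose from 1, 80 and 1 to 1772, 838 and 1399 (log2 fold change 7.54 ± 1.39 (SE), adjusted p = 0.0112), with untreated plant 2 apart from the other untreated plants. A CASP-like 1E1 transcript (Bs.00g208750.m01), of the family of Casparian strip membrane proteins, rose by 4.90 ± 0.26 (SE). An exordium-like transcript (Bs.00g142660.m01, change -0.47 ± 0.43 (SE)) overlapped between the groups, and so did a glycoside hydrolase 16 (Bs.00g144030.m01, change -1.19 ± 0.89 (SE)), which was called lower with the plant as a fixed block (adjusted p = 0.0265) and not with a random block (0.253).

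The pectin transcripts belong to a set of 32 transcripts, from 31 loci, that were at 0 in all 3 untreated libraries and at 10 or more in all 3 at 10 HAT. The set was chosen by the values compared and passed the filter only through the 10 HAT libraries. All 32 were called, so the adjusted p values given for its members add no support. Values of the set at 10 HAT were 10 to 136, so its transcripts were low in level. In 28 of the 32 plant 1 had the highest value, and in 24 plant 2 had the lowest. At 3 HAT 25 of the 32 were under 10 in every library. Of the 32, 20 were at 10 or more in both J01-S libraries at 10 HAT used here, and 23 were under 10 in every Flur-R library at 10 HAT. The shares over all transcripts are not given, so nothing is read from these counts. The reverse pattern, 0 at 10 HAT and at least 10 in every untreated library, was found for 10 transcripts, with untreated values up to 193. The largest fall of a transcript without a name was in this group, in Bs.00g200140.m01 (chromosome 3, 9460983 to 9462099), which had 166, 114 and 193 in untreated plants and 0 in all 3 at 10 HAT (adjusted p = 0.000602).

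The defence and wounding list of 17 transcripts had 11 that rose and 2 that fell, with a median of 4.69. Plants at 10 HAT had been cut before, which bears on these values directly. A proteinase inhibitor of family I13, a group of wound-induced inhibitors (Bs.00g359220.m02, chromosome 5, 4765934 to 4769142), went from 26, 75 and 20 to 13196, 18797 and 15599 (log2 fold change 8.81 ± 0.47 (SE), adjusted p = 0.000349). Bet v I proteins are small ligand-binding proteins of the PR-10 class. Of the 3 listed, Bs.00g217150.m01 went from 0, 1 and 2 to 707, 179 and 629 (log2 fold change 7.89 ± 0.70 (SE), adjusted p = 0.000972) and Bs.00g100040.m01 from 5, 5 and 0 to 108, 286 and 173 (log2 fold change 5.74 ± 0.82 (SE), adjusted p = 0.00471). The third, Bs.00g261130.m01, was not called, at 18, 986 and 20 and 1359, 545 and 1697 (adjusted p = 0.108), and untreated plant 2 was within the treated range. An allergen V5 transcript (Bs.00g305280.m01), of the PR-1 class, was at 0 in untreated plants and at 79, 16 and 53 at 10 HAT (adjusted p = 0.0052).

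Lipoxygenases oxygenate polyunsaturated fatty acids at the start of oxylipin synthesis. The 4 transcripts listed under that name, all on chromosome 4, moved in both directions. The study names Bs.00g112620.m01 by a lipase/lipoxygenase domain only, and its coding length is 684 bases. The 3 neighbouring transcripts, which may share reads, rose. Bs.00g112660.m01, a 9-lipoxygenase (chromosome 4, 93618533 to 93624771), went from 398, 492 and 165 to 12054, 18397 and 24071 (log2 fold change 5.77 ± 0.45 (SE), adjusted p = 0.000689). Bs.00g112710.m01 (chromosome 4, 93661764 to 93665361) went from 702, 1402 and 501 to 28951, 39960 and 59230 (log2 fold change 5.69 ± 0.42 (SE), adjusted p = 0.000619), and Bs.00g112620.m01 rose by 6.08 ± 0.46 (SE). The fourth, Bs.00g124870.m01 (chromosome 4, 105124705 to 105143170), fell from 10795, 25667 and 18951 to 101, 243 and 114 (log2 fold change -6.94 ± 0.43 (SE), adjusted p = 0.000403).

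Among the other defence transcripts, a WRKY transcription factor (Bs.00g020740.m01) rose by 5.38 ± 0.88 (SE), metacaspase-4, of a family of cysteine proteases linked to cell death (Bs.00g058370.m01), by 3.68 ± 0.58 (SE), and a peroxidase (Bs.00g275080.m01) by 4.03 ± 0.75 (SE). A second peroxidase (Bs.00g431740.m01) rose from 5, 188 and 19 to 866, 459 and 977 (adjusted p = 0.0295), and was called again only without untreated plant 2, since its adjusted p was 0.0934, 0.0572, 0.0943, 0.0544 and 0.0919 without plants 1, 2 and 4 at 10 HAT and untreated plants 1 and 3. A Kunitz inhibitor (Bs.00g527540.m01) fell from 97, 46 and 60 to 8, 2 and 9 (log2 fold change -3.34 ± 0.63 (SE), adjusted p = 0.0126). WRKY46 (Bs.00g415260.m01, change 0.85 ± 0.55 (SE)) and a MACPF protein (Bs.00g010340.m01, change 0.47 ± 0.16 (SE)) were not called. TIFY 11A, a repressor of jasmonate signalling (Bs.00g244130.m01), was at 35, 134 and 29 and 688, 223 and 78 and was not called (adjusted p = 0.137), but was with the plant as a fixed block (adjusted p = 0.0224), though not with a random block (0.0898).

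The detoxification list held cytochrome P450s, glycosyltransferases and transporters that the study names. It had 24 transcripts, of which 18 were tested, 3 rose, 5 fell and 10 were not called. Only some are the study's candidates for herbicide metabolism, so these counts do not describe the candidates. CYP71D10-like, both MATE carriers, the UDP-glycosyltransferase and CYP77A4 below stand only in its lists of the largest changes by line. CYP71D10-like (Bs.00g057300.m01) went from 0, 4 and 2 to 101, 46 and 93 (log2 fold change 4.96 ± 0.75 (SE), adjusted p = 0.00572), CYP81B2 (Bs.00g431990.m01) from 8, 0 and 2 to 79, 118 and 107 (log2 fold change 5.07 ± 0.83 (SE), adjusted p = 0.00736), and the efflux carrier MATE detoxification 50 (Bs.00g229060.m01) from 110, 49 and 93 to 546, 528 and 1067 (log2 fold change 3.07 ± 0.42 (SE), adjusted p = 0.00401). Falls were seen in a UDP-glycosyltransferase (Bs.00g396960.m01), from 730, 617 and 591 to 30, 13 and 8, in CYP82D47 (Bs.00g486870.m01), from 154, 319 and 1666 to 12, 12 and 5, and in a second MATE carrier (Bs.00g124100.m01), from 29336, 43432 and 29584 to 1695, 2528 and 1121. CYP77A4 (Bs.00g091650.m01) fell by 1.80. CYP96A15 (Bs.00g541440.m01) was at 3, 12 and 16 untreated and at 0 in all 3 at 10 HAT (adjusted p = 0.0461), and was not called with the plant as a fixed block (adjusted p = 0.0614) or without plants 1, 2 or 4 at 10 HAT (0.105, 0.0775 and 0.122), but was with a random block (0.0285).

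Outside these groups, the largest rise was that of the precursor of the signalling peptides CEP13/CEP14 (Bs.00g016210.m01, chromosome 8, 20258286 to 20258640), which was at 1, 2 and 2 untreated and at 1325, 2141 and 974 at 10 HAT (log2 fold change 9.07 ± 0.41 (SE), adjusted p = 0.000238). A lipolytic enzyme of the GDXG family (Bs.00g427230.m01, chromosome 2, 4152852 to 4153880) went from 39, 27 and 18 to 5482, 3781 and 4887 (log2 fold change 7.39 ± 0.32 (SE), adjusted p = 0.000238). The neighbouring AHL27 transcripts, for AT-hook DNA-binding proteins (Bs.00g176460.m01 and Bs.00g176480.m01), went from 23, 0 and 10 to 1149, 1035 and 1236 and from 3, 0 and 0 to 310, 273 and 259. Aquaporin TIP3-1, a channel of the vacuole membrane that is typical of seeds in *Arabidopsis* (Bs.00g239120.m01), went from 1, 4 and 1 to 383, 297 and 578 (log2 fold change 7.22 ± 0.53 (SE), adjusted p = 0.000609). The NAC transcription factors Bs.00g526000.m01 and Bs.00g364070.m01 rose by 5.22 ± 0.41 (SE) and 4.68 ± 0.39 (SE).

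Uncharacterized proteins were also among the largest rises. Bs.00g122020.m01 (chromosome 4, 102767275 to 102768132) went from 20, 98 and 10 to 6280, 21075 and 11937 (log2 fold change 8.68 ± 0.82 (SE), adjusted p = 0.0012) and Bs.00g044610.m01 from 207, 160 and 196 to 9450, 11140 and 9054 (log2 fold change 5.71 ± 0.18 (SE), adjusted p = 0.00021). The largest rises with no name at all were those of Bs.00g469670.m01 (chromosome 2, 78580836 to 78582348), from 63, 29 and 9 to 8524, 11662 and 5064, and Bs.00g469710.m01 (chromosome 2, 78670712 to 78672232), from 34, 14 and 4 to 3753, 5355 and 2413. These 2 are near each other on chromosome 2, have the same order of plants, and may share reads.

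Falls outside the groups above were led by a WAT1-related transporter (Bs.00g535160.m01, chromosome 6, 102146247 to 102150458), which went from 385, 545 and 510 to 5, 3 and 0 (log2 fold change -7.37 ± 0.69 (SE), adjusted p = 0.00117), and by an acyl-CoA N-acyltransferase (Bs.00g058520.m01), which went from 5111, 2103 and 4271 to 26, 42 and 38 (log2 fold change -6.65 ± 0.38 (SE), adjusted p = 0.000349). Thiamine thiazole synthase, of vitamin B1 synthesis (Bs.00g060850.m01, chromosome 4, 1682258 to 1684691), went from 140731, 63713 and 111390 to 1984, 1219 and 921 (log2 fold change -6.26 ± 0.39 (SE), adjusted p = 0.000398). A cupin (Bs.00g136920.m01) fell from 1239, 3423 and 1132 to 13, 31 and 12, with untreated plant 2 the highest. CCD4, a carotenoid cleavage dioxygenase (Bs.00g403960.m01), fell by 3.78. A NADH-cytochrome b5 reductase transcript (Bs.00g126000.m01) was at 81997, 69798 and 70624 and 4070, 4677 and 178 (adjusted p = 0.0172), with plant 4 far below plants 1 and 2, and its adjusted p was 0.0512 and 0.0562 without untreated plants 1 and 3. A proton-dependent oligopeptide transporter by the study's tables, Bs.00g195790.m01, which is in none of the lists used here, fell from 191, 374 and 183 to 0, 3 and 2.

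Ranked by the change of the mean count, the 5 largest rises and the 5 largest falls were all in transcripts without a name. The falls were Bs.00g167240.m01, Bs.00g344760.m01, Bs.00g247840.m01, Bs.00g318960.m01 and Bs.00g451460.m01, with log2 fold changes of -2.03, -3.52, -3.20, -2.81 and -2.43. Bs.00g344760.m01 (chromosome 9, 88326935 to 88328471) went from 924995, 446913 and 634482 to 67533, 55231 and 46484 (log2 fold change -3.52 ± 0.37 (SE), adjusted p = 0.00173). The fall of Bs.00g167240.m01 (adjusted p = 0.0149) was not called with the plant as a fixed block (adjusted p = 0.135) or without plant 1 at 10 HAT, plant 2 at 10 HAT or untreated plant 3 (0.08, 0.063 and 0.0622), but was with a random block (0.00698). The rises were less even among plants. Bs.00g055920.m01 (chromosome 8, 95373991 to 95387632) went from 41639, 15791 and 29485 to 217894, 117059 and 263072 (log2 fold change 2.81 ± 0.46 (SE), adjusted p = 0.00747) and was called in every fit with a library left out. Bs.00g236990.m01 went from 140340, 51928 and 215749 to 540777, 534690 and 817638 (adjusted p = 0.0259) and Bs.00g522210.m01 from 61313, 15830 and 30811 to 182507, 85108 and 241048 (adjusted p = 0.0317). The first was not called without plants 1, 2 and 4 at 10 HAT or untreated plant 1 (0.0753, 0.0601, 0.085 and 0.0536), and the second without plants 1 and 4 at 10 HAT and untreated plants 2 and 3 (0.102, 0.103, 0.0625 and 0.0933). The other 2, Bs.00g010190.m01 and Bs.00g177700.m01, were not called (adjusted p = 0.176 and 0.064), and the block decided between them. With the plant as a fixed block the first was called and the second was not (adjusted p = 0.0185 and 0.416), and with a random block the second was called and the first was not (0.039 and 0.0915).

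The gene models of the called transcripts were somewhat longer than the rest. The median coding length was 1056 bases in those that rose, 1170 in those that fell and 972 over all tested, and about 10% had a single exon in each group. The share called ran from 7.96 to 10.6% higher and from 9.92 to 13.2% lower over the chromosomes. Called loci often lay side by side, since 30.6% of the loci that rose had an adjacent tested locus that also rose, against 17.9% of all tested loci, and for falls the shares were 33.3% and 21.5%. The longest run was of 7 loci that rose, from Bs.00g008920 to Bs.00g009020 (chromosome 8, 9751693 to 9896928), with log2 fold changes of 1.05 to 3.95. Neighbouring copies of a gene can share reads, and how much of this clustering comes from that was not tested.

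The part of the response that came after 3 HAT was read from 10 HAT against 3 HAT in 9425, in a fit over all groups of the study. At 10 HAT 426 transcripts were higher than at 3 HAT, or 1.47% of 28945 tested, and 981 were lower, or 3.39%. With the plant as a random block the counts were 1509 and 2398, with each library rescaled to the same total 1205 and 676, and with quantile normalization 629 and 861. They were 151 and 450 without plant 1 at 10 HAT, 168 and 452 without plant 4 at 10 HAT, 171 and 581 without plant 2 at 3 HAT, and 232 and 544 without plant 3 at 3 HAT. The transcripts given next as higher or lower were called in every fit with 1 of these 6 libraries left out, with these exceptions. Granule-bound starch synthase 1 was called in 3 of the 6 and IAA29 in 0 of the 6.

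Of the 12 photosynthesis transcripts, 7 were lower at 10 than at 3 HAT and 5 were not called, which were both photosystem II subunits and the 3 ELIP transcripts. The log2 differences of the ELIP transcripts were 0.69, 2.03 and 2.28. Of the 5 carbon and starch transcripts 4 were lower, among them granule-bound starch synthase 1 (log2 difference -2.04 ± 0.49 (SE), adjusted p = 0.0191), and PPCK1 was not called (log2 difference -1.82 ± 0.59 (SE), adjusted p = 0.0824). The chlorophyll a-b binding transcript Bs.00g240870.m01 stood at 185866, 118222 and 179856 in plants 2, 3 and 4 at 3 HAT and fell by 5.19 on the log2 scale from there. GPT2 (Bs.00g002550.m01) stood at 2270, 3792 and 940 at 3 HAT (log2 difference -5.76 ± 0.89 (SE), adjusted p = 0.000734). Photosystem I subunit IV (Bs.00g115330.m01) stood at 47369, 35328 and 25477 at 3 HAT (log2 difference -3.56 ± 0.38 (SE), adjusted p = 3.32e-05), so that much of its fall came late. Magnesium chelatase subunit H, PGR5 and fructose-1,6-bisphosphatase changed by -3.13, -2.68 and -2.72, and thiamine thiazole synthase, the WAT1-related transporter and the acyl-CoA N-acyltransferase by -3.97, -4.98 and -4.56.

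Rises after 3 HAT included enzymes of amino acid breakdown and a clock transcript. HPPD (Bs.00g422990.m01) stood at 22010, 24575 and 27191 at 3 HAT (log2 difference 2.15 ± 0.36 (SE), adjusted p = 0.00137) and the alanine dehydrogenase domain transcript at 799, 1417 and 830 (log2 difference 2.00 ± 0.39 (SE), adjusted p = 0.0055). COR27 (Bs.00g168520.m01) stood at 217, 532 and 413 at 3 HAT (log2 difference 3.41 ± 0.49 (SE), adjusted p = 0.000371). The NAC transcript Bs.00g364070.m01 had barely moved at 3 HAT, at 391, 886 and 422 against 200, 546 and 494 untreated, and was 4.20 higher at 10 HAT on the log2 scale. The GDXG lipolytic enzyme rose by 4.87 and aquaporin TIP3-1 by 3.02. The pectin lyase fold transcripts and the allergen V5 transcript were at 2 or less at 3 HAT and were called (adjusted p = 0.00194, 0.00015 and 0.000307). They belong to the set above that was chosen by its values at 10 HAT, so these adjusted p values add no support.

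Some transcripts were high at 3 HAT and back at or below the untreated level at 10 HAT. Gibberellin 2-beta-dioxygenase 4 (Bs.00g361960.m01) was lower at 10 HAT than at 3 HAT (log2 difference -4.34 ± 0.85 (SE), adjusted p = 0.00538), and the 3 amino acid transporters were lower as well, with log2 differences of -4.53 to -4.63. For GH3.2, ACC synthase, IAA15 and the IAA4-like transcript no difference between 3 and 10 HAT was called, with log2 differences of 1.25, 0.17, -0.10 and -0.02. IAA29 was called higher at 10 HAT (log2 difference 1.15 ± 0.33 (SE), adjusted p = 0.0475).

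The response of 9425 was set against that of the resistant line Flur-R (3 untreated and 4 10 HAT libraries) and of the susceptible line J01-S (2 untreated libraries and 2 at 10 HAT, with 1 more left out because 98.3% of the 782 line-specific transcripts were on the side of 9425 in it). In the J01-S libraries kept at 10 HAT the share was 25.1% (replicate 2) and 0.767% (replicate 4). Both comparisons share the 9425 libraries. The 9425 plants were all vegetative, but a few plants of each of the other lines were in early flower when tissue was cut. Which libraries, if any, come from flowering plants is not known. Whether growth stage adds to the differences between lines was therefore not tested. Against Flur-R, the log2 change at 10 HAT was more positive in 9425 for 15 transcripts, or 0.0518% of those tested, and more negative for 2, or 0.00691%. Against J01-S it was more positive for 3, or 0.0104%, and more negative for 0, or 0.0%. At an unadjusted p under 0.05 limma gave 1878 of 28945 transcripts against Flur-R and 1279 of 28945 against J01-S, 637 of the latter more negative in 9425. A share of 0.05 is expected at this threshold without any difference, so nothing is read from these unadjusted counts. With the plant as a random block the counts were 129 and 69 against Flur-R and 4 and 5 against J01-S.

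These counts depend on single libraries. Against Flur-R, the 15 became 4 without plant 1 or plant 4 of 9425 at 10 HAT, 6 and 8 without untreated plants 2 and 3, 2 without untreated replicate 2 of Flur-R, and 25 and 7 without replicates 1 and 2 of Flur-R at 10 HAT. Against J01-S, 156 more positive and 115 more negative changes were called without replicate 4 of J01-S at 10 HAT, which leaves only replicate 2 in that group, assumed to vary like the others. Of the 149 listed transcripts, 4 were called against Flur-R and 2 against J01-S. With the random block these became 10 more positive and 4 more negative against Flur-R, and 2 of each against J01-S. For GH3.2 the response of 9425 minus that of Flur-R was 0.38 ± 0.98 (SE) and minus that of J01-S 1.36 ± 1.13 (SE). For the chlorophyll a-b binding transcript the differences were 0.25 ± 0.44 (SE) and -0.48 ± 0.50 (SE). For cystathionine gamma-lyase they were 2.12 ± 1.06 (SE) and 0.79 ± 1.23 (SE), so the intervals leave room for sizeable differences between lines. Some larger estimates were called only with the random block. Against Flur-R these included -5.25 ± 1.22 (SE) for the chalcone/stilbene synthase transcript Bs.00g518030.m01 (adjusted p = 0.00753) and 4.36 ± 1.01 (SE) for the Bet v I transcript Bs.00g100040.m01 (0.0267). Against J01-S the WAT1-related transporter had -5.565 ± 0.965 (SE) (0.0113).

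Of the 15 transcripts with a more positive change than in Flur-R, 10 (from 9 loci) were at 0 in every untreated 9425 library and at 6 to 87 at 10 HAT, with plant 1 the highest in all 10. In Flur-R they did not pass 3 at 10 HAT, and in J01-S they were at 3 to 42 at 10 HAT and at most 2 untreated. These 10 met the filter only through 10 HAT libraries in which they were high, so their adjusted p values add no support. The pectin lyase fold transcript Bs.00g142300.m01 is one of them. Its values in the 4 Flur-R libraries at 10 HAT were 1, 0, 0 and 0 and in the 2 of J01-S 21 and 42, against 87, 19 and 36 in 9425 (adjusted p of the difference from Flur-R = 0.0183). It was called in 6 of the 13 fits with 1 library left out. The unnamed Bs.00g121700.m01 (chromosome 4, 102552741 to 102554748) was at 78, 14 and 24 in 9425, at 0 in all 4 libraries of Flur-R and at 24 and 38 in J01-S (adjusted p = 0.0124), and was called in 12 of the 13 fits. With 0.5 in place of 1 added before the log, 4 of the differences from Flur-R were not called.

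Another 4 of the 15 were at 2 or less in every 9425 library used, so that the difference restates a fall in Flur-R and holds no response of 9425. They passed the filter through the other lines. They lie on chromosome 3 between 35485782 and 37083261. CYP90A1, a brassinosteroid synthesis enzyme, has 2 of them, Bs.00g205780.m01 and Bs.00g205800.m01. The first was at 1510, 791 and 1198 in untreated Flur-R and at 37, 25, 25 and 18 at 10 HAT, and at 1993 and 2638 in untreated J01-S and 38 and 74 at 10 HAT, while 9425 had 0 in the 9 libraries used and 43 in the library left out. It and its neighbour, together with Bs.00g206420.m01 (chromosome 3, 37313718 to 37320646), are also the 3 transcripts called against J01-S. A cytochrome P450 transcript, Bs.00g206320.m01, fell from 14939, 4063 and 13937 to 8, 12, 13 and 39 in Flur-R, and Bs.00g206010.m01 from 228, 55 and 221 to 0, 1, 1 and 4.

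The last of the 15, Bs.00g024880.m01 (chromosome 8, 36900288 to 36900785), was at 849, 576 and 530 and 776, 787 and 927 in 9425 and fell in Flur-R from 1185, 959 and 1902 to 432, 404, 629 and 423. Of the 2 with a more negative change in 9425, Bs.00g127780.m01 (chromosome 1, 1850346 to 1862083) fell in 9425 from 5369, 3720 and 5234 to 583, 509 and 706 and was at 10283, 6713 and 10540 untreated and 15273, 15071, 6265 and 8173 at 10 HAT in Flur-R. It fell in J01-S as well, from 4278 and 5224 to 233 and 855. The other, Bs.00g478420.m01 (chromosome 6, 3976094 to 3976579), was at 85, 195 and 106 and 237, 168 and 369 in 9425 and rose in Flur-R from 30, 53 and 44 to 1341, 1655, 807 and 1247.

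**Figure D5:**
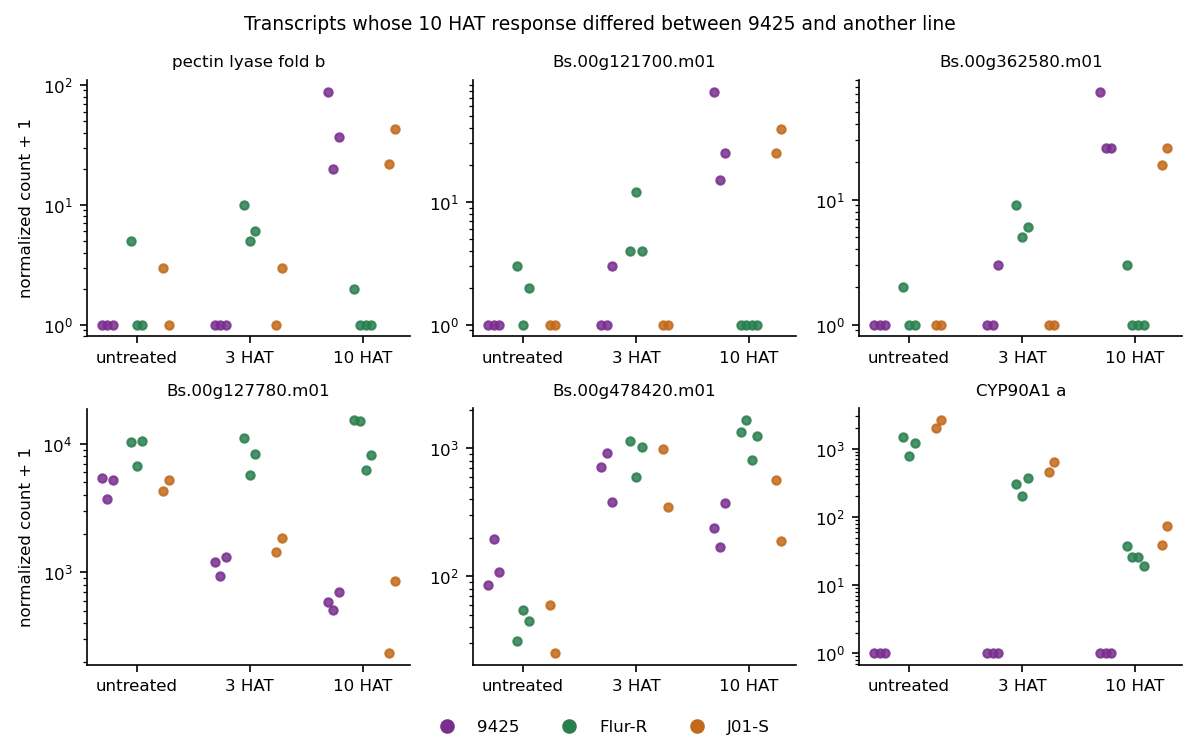
Normalized counts plus 1, on log axes, of transcripts whose 10 HAT response was called different between 9425 and another line, in every library used, untreated, at 3 HAT and at 10 HAT. Each point is 1 library. The CYP90A1 transcript is at 0 in all 9425 libraries and falls in the other lines, and the pectin lyase fold transcript is above 10 at 10 HAT in 9425 and J01-S and at 1 or less in Flur-R.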

How the data were processed

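RNA-seq of apical leaf tissue was analysed for 9425 untreated (plants 1, 2 and 3) and at 10 HAT (plants 1, 2 and 4), with the other libraries of the 27 used for the comparisons with 3 HAT and with the other lines. RNA was depleted of ribosomal RNA and sequenced paired end on a BGISEQ instrument. The submitters' notes name HISAT2 2.1.0 and DESeq2 1.28.1. The authors mapped reads with HISAT2 to the predicted coding sequences of kochia assembly version 2, used featureCounts to count them per transcript and scaled the counts with DESeq. What was deposited is a score per transcript and library, the scaled count rounded by the authors to a whole number, from which reads cannot be recovered, so no count model was used and counting error was not computed. Read totals per library, which the study's supplement gives, were not used here. Isoforms and close copies share reads.

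Transcripts with 10 or more in at least 2 libraries were tested on log2(value + 1) with limma 3.58.1 (variance trend) in R 4.3.3, with the Benjamini-Hochberg adjustment over all transcripts tested, and a call needed an adjusted p below 0.05 with a log2 change over 0.5 in size. The main comparison was fitted on its 6 libraries. The comparisons with 3 HAT and with Flur-R and J01-S were contrasts in a fit over all 9 groups without replicate 3 of 9425 and of J01-S at 10 HAT, which do not carry the transcripts of their lines. Only the fit of the main comparison, without a block, was tried on simulated data, with independent noise. The other contrasts and the block fits were not.

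Numbers 1 and 2 occur at both times and were taken as the same plants, which the labels do not state. Deviations from the group means correlated at 0.542 and 0.489 for equal numbers and at -0.628 to 0.274 over the 7 pairs of different numbers. The plant, by this number, was therefore entered as a replicate block in an alternative fit (statmod 1.5.0 for the random effect). Other alternatives were 0.5 or 8 in place of 1, no filter or a filter at 50, libraries rescaled to equal totals, quantile normalization, no variance trend, all groups in the fit, sums by locus, the doubtful libraries added and each library left out. Those for 10 against 3 HAT were chosen after seeing the data.

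Members and gene lists were chosen with earlier results of these data known, from names in the study's text and tables, and do not hold every transcript that the study names. Named were list members, the 10 largest changes in each direction with a name (groups not overlapping, mean 50 or more in the higher one), the 2 largest without one in the lists, the 5 largest rises and falls in mean count, and the called differences between lines, of which those beyond the first 5 named and 2 unnamed were picked after their values were seen. Replicates are separate plants. RNA batches and growth stage could not be modelled. The deposited columns used hold values only.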

Additional observations from a re-analysis of the deposited data

Results flagged for a closer look

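The results set apart are the transcripts whose change at 10 HAT differed between 9425 and another line by limma's interaction contrast. Where a group of the contrast was at 0 throughout, the log2 difference is set by the added 1, so the adjusted p is given in its place. Against Flur-R it was 0.0183 for the pectin lyase fold transcript Bs.00g142300.m01. For the other transcripts that were at 0 in every untreated 9425 plant it was 0.0124 for Bs.00g121700.m01, 0.047 for Bs.00g536930.m01, 0.0369 for Bs.00g448000.m01, 0.0144 for Bs.00g362580.m01, 0.0252 for Bs.00g114080.m01, 0.0144 for Bs.00g105900.m01, 0.0124 for both isoforms of Bs.00g195450, and 0.0284 for Bs.00g261340.m01. The values of these 10 at 10 HAT were higher in 9425 than in Flur-R. They met the filter only through 10 HAT libraries in which they were high, so these adjusted p values add no support. For the transcripts of chromosome 3 at 2 or less in every 9425 library used it was 0.0181 for the cytochrome P450 Bs.00g206320.m01, 0.0318 for Bs.00g206010.m01, and 4.98e-05 and 0.000751 for the CYP90A1 transcripts Bs.00g205780.m01 and Bs.00g205800.m01. The log2 fold change in 9425 minus that in Flur-R was 1.85 for Bs.00g024880.m01, -3.20 for Bs.00g127780.m01 and -3.84 for Bs.00g478420.m01.

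Against J01-S the adjusted p was 0.00238 for Bs.00g205800.m01, 0.000396 for Bs.00g205780.m01 and 0.000396 for Bs.00g206420.m01. All 3 were at 0 in the 9425 libraries used, so these differences restate the fall in J01-S and say nothing of a response of 9425, however often they are called.

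Most differences from Flur-R were lost in some of the 13 fits with 1 library left out. Of the transcripts at 0 in untreated 9425, Bs.00g121700.m01 was called in 12 of these fits, Bs.00g362580.m01 and both isoforms of Bs.00g195450 in 10, Bs.00g105900.m01 in 9, Bs.00g142300.m01 and Bs.00g114080.m01 in 6, Bs.00g448000.m01 in 3, Bs.00g261340.m01 in 2 and Bs.00g536930.m01 in 1. The cytochrome P450 Bs.00g206320.m01 was called in 6, Bs.00g024880.m01 in 4, Bs.00g206010.m01 and Bs.00g127780.m01 in 3 and Bs.00g478420.m01 in 1.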

How the results depend on the processing

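Of 130 named transcripts called at 10 HAT against untreated, 113 were called under every alternative that tested them, 17 were lost under at least 1 and none changed sign. Outside the fits with 1 library left out, 7 were lost. Of the 130, 118 were tested in every alternative, apart from the sums by locus, which gave counts only, and the filter at 50 removed 12. Leaving out 1 library gave 946 to 2075 transcripts higher and 1642 to 2704 lower at 10 HAT against untreated. Equal totals gave 4126 higher. The plant as a fixed replicate block gave 1660 and 2213, of which 1331 and 1943 were also called without it (4 named calls were lost and 7 gained), and the random replicate block gave 3133 and 3474 (0 lost and 5 gained). Among transcripts not called, ARF3 (Bs.00g076170.m01) changed sign with equal totals (0.25) and quantile normalization (0.0377) and ranged from -0.38 to 0.42 with 1 library left out, NCED2 (Bs.00g059470.m01) from -0.14 to 0.56 and gibberellin 2-beta-dioxygenase 4 (Bs.00g361960.m01) from -0.94 to 0.32. With 9425 10 HAT replicate 3 added, the changes of Bs.00g361960.m01, Bs.00g142660.m01 and Bs.00g024880.m01 were 0.28, 0.25 and -0.13.

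Against Flur-R, 15 more positive and 2 more negative changes became 26 and 4 with 8 added, 3 and 0 with a filter at 50, 53 and 8 with no filter, and 129 and 69 with the random block. The more negative changes were 1 with 0.5 added and 1 with the doubtful libraries added. With 1 library left out the ranges were 2 to 25 and 0 to 2. Against J01-S, 3 and 0 became 5 and 5 with 8 added, 29 and 36 with no filter, 1 more positive with the doubtful libraries added and 5 more negative with the random block, and ranged from 2 to 156 and from 0 to 115 with 1 library left out. Between 3 and 10 HAT, 426 and 981 became 915 and 1476 with the doubtful libraries added and 1509 and 2398 with the random block, 1205 were higher with equal totals, and the ranges with 1 library left out were 151 to 552 and 450 to 900. The cause of these changes was not tested. Depth was not used to set limits, since reads cannot be recovered from the normalized values.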

Other observations

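The library labelled 9425 10 HAT replicate 3 had CYP90A1 values of 43 (Bs.00g205780.m01) and 32 (Bs.00g205800.m01), and a cytochrome P450 value of 167 (Bs.00g206320.m01), where the 10 HAT libraries of plants 1, 2 and 4 had 0. Its values for the pectin lyase fold transcript Bs.00g142300.m01 and for Bs.00g121700.m01 were 51 and 50, within the range of those plants. For Bs.00g127780.m01 it had 591, also within their range, and for Bs.00g478420.m01 881, above it. With this library added, 2406 transcripts were called higher and 2760 lower at 10 HAT.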
